A study of Ovis aries with 12 samples.

Results

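The translation initiation factors (EIF) and elongation factors (EEF) were followed in longissimus dorsi, the long muscle of the back, of 12 lambs. Members were all probe sets of a bovine expression array whose only gene symbol in the array annotation starts with EIF and a digit or with EEF, with 1 probe set kept for each gene. By this rule 75 of the 24128 probe sets on the array were found, and they covered 51 of 9155 named genes: 40 EIF genes and 11 EEF genes. Where a gene had several probe sets, the brightest was kept, by its mean over the 12 arrays. Of the 51 genes, 47 were bright enough to be tested. The other 4 (EEF1AKMT3, EEF2KMT, EIF2A and EIF2AK3) lay below the level set for dim probe sets and got no test.

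The 12 lambs were 6 callipyge lambs, labelled +/CLPG, and 6 normal lambs, labelled +/+. Callipyge is an inherited enlargement of sheep muscle that appears after birth, and the study compared the genotypes while the enlargement sets in. Each genotype was sampled at 10, 20 and 30 days of age, with 2 lambs in each of the 6 groups and 1 array per lamb. All lambs were left with their dams to nurse until shortly before they were euthanized. RNA of a whole piece of muscle was read, so fewer cells of a type and less RNA per cell cannot be told apart.

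Protein synthesis begins when EIF2 brings the initiator tRNA to the small ribosomal subunit, EIF3 holds the complex together, and the EIF4 factors bind the cap of the mRNA and unwind its leader. The elongation factors then bring each charged tRNA to the ribosome (EEF1A, recharged by a complex of EEF1B2, EEF1D and EEF1G). They also move the ribosome along the mRNA (EEF2). In growing muscle, the growth kinase mTOR is known to act on this machinery largely through phosphorylation, among others of EIF4EBP1, an inhibitor of the cap-binding factor EIF4E, while an array reads only mRNA.

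Levels are given as log2 of the scaled intensity plus 16, and differences on that scale, so a difference of 1 is close to a doubling for bright probe sets. Before scaling, the 2% trimmed means of the arrays ran from 55.7 to 105.7. Arrays of the same group correlated at 0.956 to 0.969. The mean correlation of an array with the other arrays was lowest for replicate 2 of the 30 day groups. It was 0.9529 in the callipyge and 0.9515 in the normal group, close to the 0.9546 to 0.9635 of the remaining arrays. The calls, and the differences of some members such as EEF1G and EIF4EBP1, are also given without these replicate 2 arrays. With 12 arrays in all, their number limits the precision, and the probes were designed on cattle rather than sheep sequence. Muscle fibre markers were on the array for 10 of 13 listed genes and all 10 were tested.

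No member passed the test for genotype. Averaged over the 3 ages, 0 of 47 members had an adjusted p under 0.05 in limma, against 0.883% of all 12008 tested probe sets. At an unadjusted p under 0.05 there were 5 members, against 11.8% of all probe sets. The difference of callipyge minus normal lay above 0 for 30 of 47 members, against 47.5% of all probe sets. Its median was 0.05 over the members and -0.01 over all probe sets, and members ran from -0.67 (EIF4EBP1) to 0.40 (EIF4E). For 38 of 47 members the 95% interval lay within 0.5 of 0, against 62.4% of all probe sets, and for 46 members it lay within 1 of 0, against 97.9%. For no member did all 6 callipyge lambs lie above all 6 normal lambs, against 0.683% of all probe sets, or all below, against 0.35%. Without scaling of the arrays, the median of all probe sets moved to -0.19 and that of the members to -0.16. That setting also turned the split of the calls over all probe sets from 68 higher and 38 lower to 17 higher and 83 lower.

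**Figure D1:**
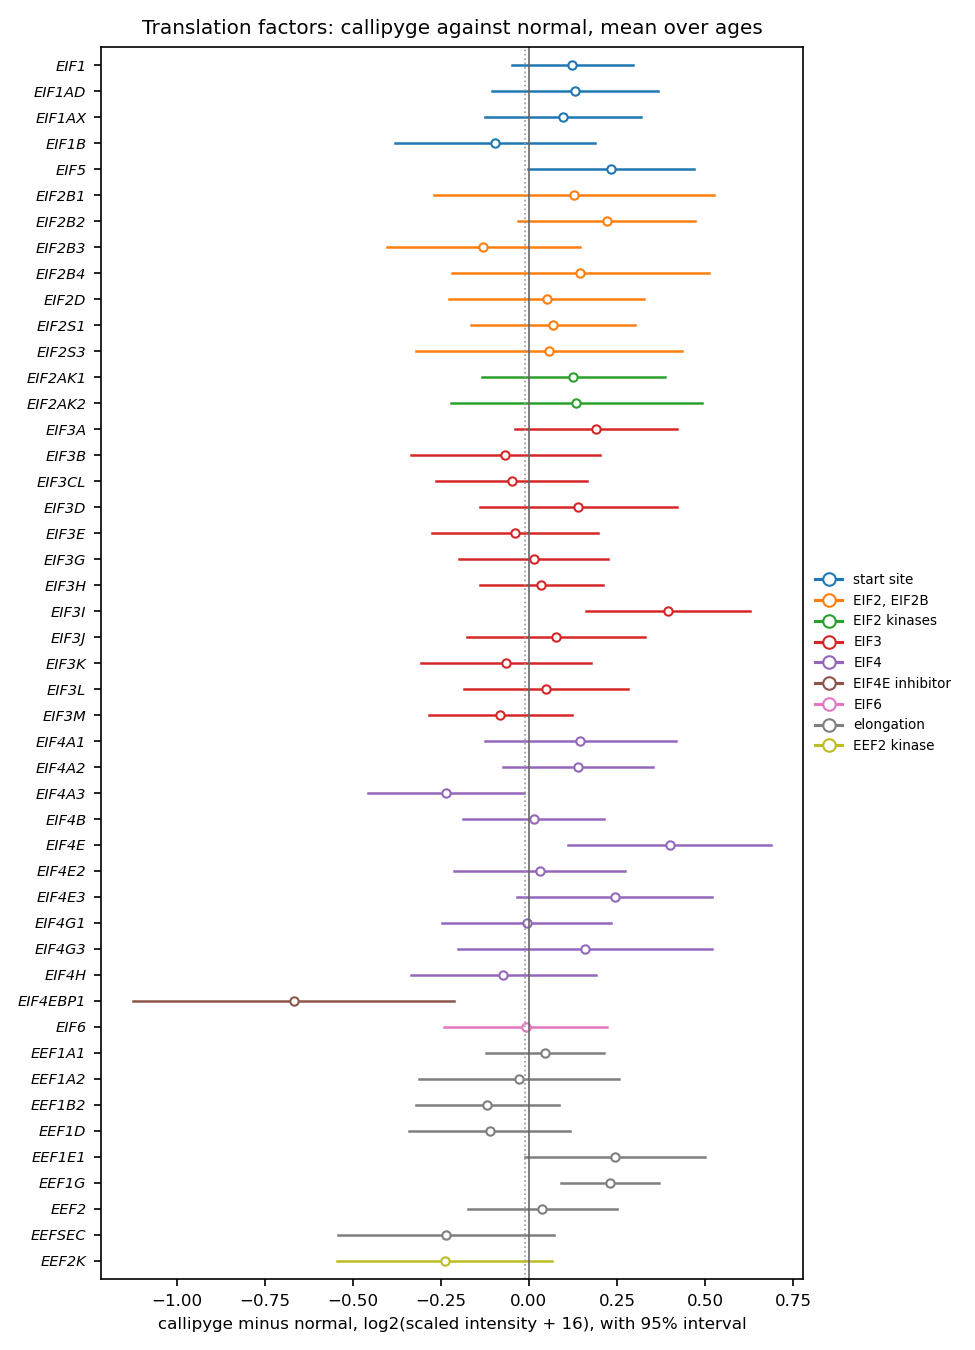
Callipyge minus normal, averaged over 3 ages, for each of the 47 tested members (x axis, log2 scale; points with 95% intervals from limma, coloured by role; the dotted line is the median of all 12008 probe sets). Most intervals span 0, EIF4EBP1 lies lowest at -0.67 and EIF4E highest at 0.40, and 0 members passed after adjustment.

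EIF1, EIF1AX, EIF1B and EIF5 serve the choice of the start codon as the small subunit scans the mRNA, and EIF1AD was listed with them only for its EIF1A-like domain. All 5 were tested. Of these, 0 passed for genotype, 4 lay above 0 (3 of 4 without EIF1AD) and the median was 0.12. EIF5, which triggers GTP hydrolysis by EIF2 at the start codon, had the greatest difference of the group, 0.23 ± 0.11 (SE; adjusted p 0.427). In callipyge lambs EIF5 read 11.62 and 11.88 at 10 days, 11.63 and 11.92 at 20 days, and 11.38 and 11.87 at 30 days. In normal lambs it read 11.40 and 11.22, then 11.51 and 11.59, then 11.41 and 11.78. The callipyge lambs were thus the higher ones at 10 and at 20 days, and the genotypes overlapped at 30 days. EIF1B, a close relative of EIF1, was the lowest of the group at -0.10 ± 0.13 (adjusted p 0.842).

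The EIF2 and EIF2B group held 8 measured genes, of which 7 were tested (EIF2A was too dim, at 4.64 to 5.43). EIF2A and the tested EIF2D were listed here for their names and are subunits of neither EIF2 nor EIF2B. EIF2B is the exchange factor that reloads EIF2 with GTP. Of the 7, 0 passed for genotype, 6 lay above 0, and the median was 0.07. EIF2B2, a regulatory subunit of EIF2B, differed by 0.22 ± 0.12 (adjusted p 0.494) and EIF2B3, a catalytic subunit, by -0.13 ± 0.13 (adjusted p 0.756). The alpha subunit of EIF2, EIF2S1, which carries the phosphorylation site of the stress kinases, kept within a narrow range, from 8.66 to 9.02 in callipyge and from 8.61 to 8.88 in normal lambs. Its genotype difference was 0.07 ± 0.11 (adjusted p 0.867).

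Of the kinases that phosphorylate EIF2 and so slow initiation, 3 were on the array. EIF2AK1, the heme-sensing kinase, differed by 0.13 ± 0.12 (adjusted p 0.747). EIF2AK2, activated by double-stranded RNA, differed by 0.13 ± 0.16 (adjusted p 0.820). EIF2AK3, the kinase of the endoplasmic reticulum, was dim, at 4.16 to 5.28 in callipyge and 4.71 to 4.99 in normal lambs.

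The EIF3 complex is the scaffold on which the other factors assemble. All 11 of its measured subunits were tested, 0 passed for genotype, 7 lay above 0, and their median was 0.04. EIF3I, a subunit with WD repeats, had the smallest unadjusted p of all members, with 0.39 ± 0.11 (1.31-fold; p 0.00294, adjusted p 0.130). EIF3I read 9.66 and 10.00, 9.63 and 9.93, and 9.82 and 10.04 in callipyge lambs at the 3 ages. In normal lambs it read 9.36 and 9.55, 9.61 and 9.72, and 9.11 and 9.36. Callipyge lambs were higher at 10 and 30 days, and at 20 days the ranges overlapped. EIF3A, the largest subunit, differed by 0.19 ± 0.11 (adjusted p 0.520), and EIF3M was the lowest at -0.08 ± 0.09 (adjusted p 0.808). A probe set that the annotation names EIF3CL, the name of a near copy of EIF3C in human, differed by -0.05 ± 0.10 (adjusted p 0.906), and its signal cannot be told from that of EIF3C.

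Of the EIF4 factors, which bind the cap and unwind the mRNA leader, 10 genes were measured and tested. None passed for genotype, 7 lay above 0, and the median was 0.09. EIF4E, the cap-binding protein itself, was the highest member, at 0.40 ± 0.13 (1.32-fold; adjusted p 0.237). It read 9.15 and 8.88 at 10 days, 9.24 and 8.86 at 20 days, and 8.85 and 9.18 at 30 days in callipyge lambs, and 8.63 and 8.79, 8.56 and 8.88, and 8.19 and 8.72 in normal lambs. The callipyge lambs were above the normal lambs at 10 and 30 days, but at 20 days the higher normal lamb passed the lower callipyge lamb. EIF4E is also read by 3 control probe sets of the array, along its 3′ end, middle and 5′ end, and these did not share 1 direction. Fitted as added rows, they gave genotype differences of 0.37 ± 0.12 (3′ end, adjusted p 0.218), -0.0046 ± 0.11 (middle, adjusted p 0.994) and -0.10 ± 0.12 (5′ end, adjusted p 0.817). The middle control probe set was the brightest of the 4, with a mean of 9.15 against 8.83 for the probe set used here, and was passed over since control probe sets were left out of the tested table.

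EIF4E3, a cap-binding relative of EIF4E, differed by 0.24 ± 0.13 (adjusted p 0.491) and EIF4A3, a helicase of the EIF4A family that serves in the exon junction complex, by -0.24 ± 0.10 (adjusted p 0.389). The scaffold genes EIF4G1 and EIF4G3, which bridge the cap-binding protein and the helicase, differed by -0.0066 ± 0.11 (adjusted p 0.990) and 0.16 ± 0.17 (adjusted p 0.778). The helicases EIF4A1 and EIF4A2 differed by 0.15 ± 0.13 (adjusted p 0.719) and 0.14 ± 0.10 (adjusted p 0.648). The helicase cofactor EIF4H lay at -0.07 ± 0.12 (adjusted p 0.877). EIF6, which keeps the large ribosomal subunit from joining too early, lay at -0.0094 ± 0.11 (adjusted p 0.986).

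EIF4EBP1, which holds EIF4E away from the scaffold until mTOR phosphorylates it, had the largest genotype difference in size of the 47 members, -0.67 ± 0.21 (1.59-fold lower in callipyge; 95% interval -1.12 to -0.21; p 0.00755, adjusted p 0.209). In callipyge lambs it read 7.40 and 7.41 at 10 days, 7.69 and 8.24 at 20 days, and 7.62 and 8.23 at 30 days. In normal lambs it read 8.73 and 8.70 at 10 days, 8.23 and 8.39 at 20 days, and 7.55 and 8.99 at 30 days. The genotypes lay far apart at 10 days, came close at 20 days, and at 30 days the normal lambs were both the lowest and the highest. Its difference was -1.31 ± 0.37 at 10 days (2.49-fold lower; adjusted p 0.254), -0.35 ± 0.37 at 20 days (adjusted p 0.954) and -0.34 ± 0.37 at 30 days (adjusted p 0.878). The averaged difference depended on the normal lambs of 30 days: it was -0.91 (adjusted p 0.0160) without replicate 1 of that group and -0.43 (adjusted p 0.278) without replicate 2. Without both replicate 2 arrays of the 30 day groups it was -0.53 (adjusted p 0.172), and EIF4EBP1 passed for genotype at 10 days. Without scaling of the arrays the averaged difference was -0.87 with an adjusted p of 0.0438, where the median of all probe sets stood at -0.19. Only the probe set for EIF4EBP1 represents the EIF4E inhibitors here, and EIF4EBP2 and EIF4EBP3 were not analysed here.

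**Figure D2:**
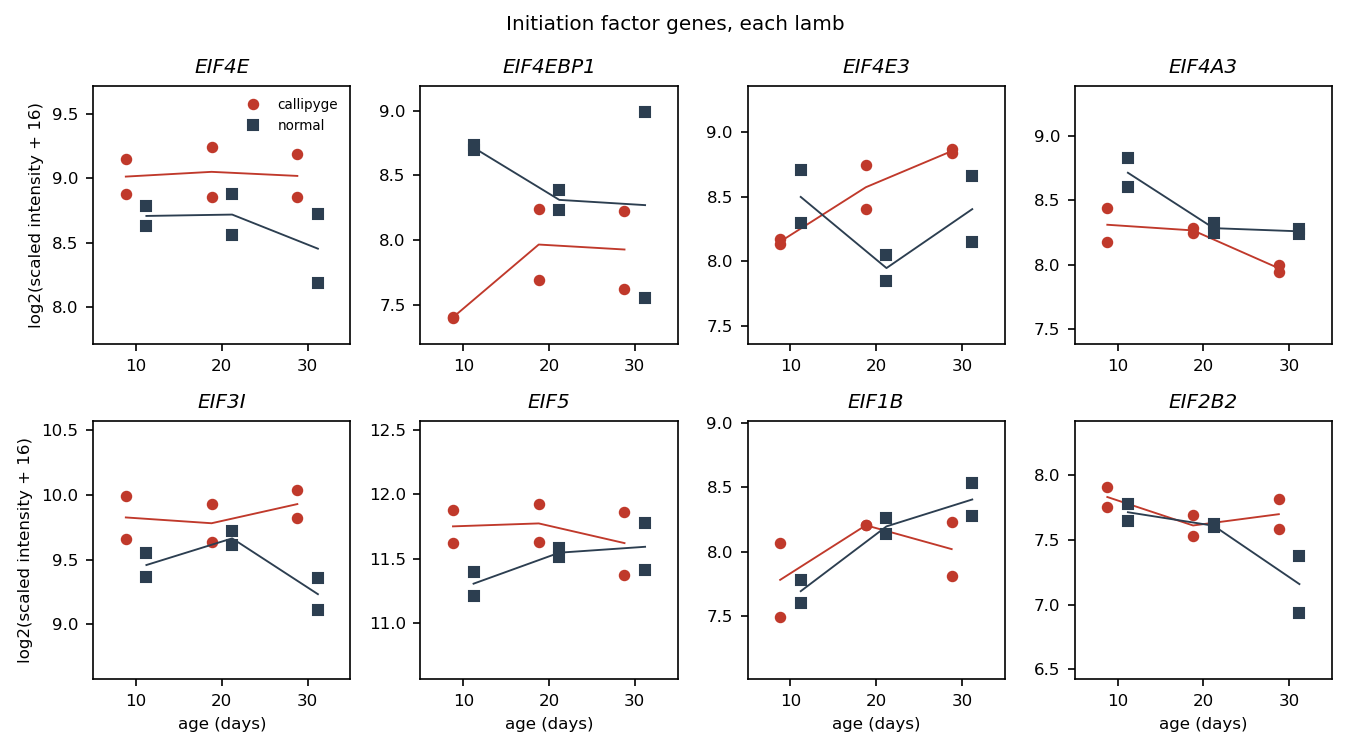
Levels of 8 initiation factor genes in each of the 12 lambs (y axis, log2 of scaled intensity plus 16; x axis, age in days; circles callipyge, squares normal, lines through group means of 2 lambs; each panel spans 2 log2 units). EIF4EBP1 is apart between genotypes at 10 days and overlaps at 30 days, and EIF4E and EIF3I overlap between genotypes at 20 days.

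Among the 8 genes listed as elongation factors, genotype differences were split, with 4 above 0, 4 below 0 and a median of 0.0049. EEF1E1, described below, was listed with them for its name. Without it 4 of 7 lay below 0 and the median was -0.03. EEF1G, the gamma subunit of the exchange complex that recharges EEF1A, read higher in callipyge lambs at every age. Its callipyge lambs lay above the normal lambs within each of the 3 ages. This held for 1 of 47 members (2.13%), near the 1.84% of all probe sets. The difference of EEF1G was 0.23 ± 0.06 (1.17-fold; adjusted p 0.142), and it was 0.20, 0.16 and 0.33 at 10, 20 and 30 days. The averaged difference depended on the scaling. It was 0.26 (adjusted p 0.0552) with quantile normalization. Without scaling of the arrays it was 0.0057 (adjusted p 0.988), where the median of all probe sets stood at -0.19. No member had its callipyge lambs below the normal lambs within every age, against 1.47% of all probe sets. EEF1E1, which despite its name is a partner of the tRNA synthetase complex, differed by 0.24 ± 0.12 (adjusted p 0.445), and EEFSEC, which brings selenocysteine tRNA to the ribosome, by -0.24 ± 0.14 (adjusted p 0.560). The other 2 subunits of the exchange complex, EEF1B2 and EEF1D, lay on the other side of 0 from EEF1G. They were at -0.12 ± 0.09 (adjusted p 0.688) and -0.11 ± 0.11 (adjusted p 0.747). For the tRNA carrier EEF1A1 the difference was 0.05 ± 0.08 (95% interval -0.12 to 0.21; adjusted p 0.882), for EEF1A2, its form in mature muscle and nerve, -0.03 ± 0.13 (-0.31 to 0.26; adjusted p 0.962), and for the translocase EEF2 0.04 ± 0.10 (-0.17 to 0.25; adjusted p 0.926). EEF2K, the kinase that inhibits EEF2, lay at -0.24 ± 0.14 (adjusted p 0.547). It was lower in both callipyge lambs at 10 days (7.14 and 6.75, against 7.48 and 7.33) and overlapped at 20 and 30 days.

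At single ages, too, 0 members passed. At 10 days 0 of 47 passed, against 0.0666% of all probe sets, and 4 had an unadjusted p under 0.05, against 8.82%. The smallest p values belonged to EIF4EBP1, to the scaffold subunit EIF3H (0.34 ± 0.14, adjusted p 0.530) and to EIF5 (0.44 ± 0.19, adjusted p 0.532). At 20 days 0 passed, against 0.0333%, and 1 had an unadjusted p under 0.05, against 6.15%. That member was EIF4E3 at 0.63 ± 0.22 (adjusted p 0.676), followed by EEF1D at -0.35 ± 0.18 (adjusted p 0.852) and EIF1AD at 0.28 ± 0.19 (adjusted p 0.901). At 30 days 0 passed, against 0.05%, and 6 had an unadjusted p under 0.05, against 7.6%. They were led by EIF3I at 0.70 ± 0.19 (adjusted p 0.361), EEF1G at 0.33 ± 0.11 (adjusted p 0.533) and EIF2B2 at 0.54 ± 0.20 (adjusted p 0.575).

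Whether the genotype difference itself moved with age was tested by the interaction of genotype and age. None of the 47 members passed, as of all probe sets (0%), and 1 member had an unadjusted p under 0.05, against 4.75%. That was EIF4E3 (p 0.0191, adjusted p 0.992). EIF4E3 read 8.17 and 8.13 in callipyge and 8.29 and 8.70 in normal lambs at 10 days, 8.40 and 8.74 against 8.05 and 7.84 at 20 days, and 8.83 and 8.87 against 8.15 and 8.66 at 30 days. Callipyge lambs were thus the lower ones at 10 days and the higher ones at 20 and 30 days. A dimmer probe set of EIF4E3 (mean level 5.82) differed by 0.03, 0.30 and -0.0002 at 10, 20 and 30 days. It did not repeat the lower level at 10 days or the higher one at 30 days. The next in order were EIF3H (p 0.0629) and EEF1D (p 0.0948), both with an adjusted p of 0.992.

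Between 10 and 30 days, averaged over genotypes, 1 of 47 members passed the test, against 1.83% of all probe sets. It was EEF1G, which fell by 0.43 ± 0.08 (1.35-fold; 95% interval -0.60 to -0.26; adjusted p 0.0188), and 1.26% of all probe sets were called lower. EEF1G read 12.65 and 12.73 at 10 days, 12.55 and 12.53 at 20 days, and 12.37 and 12.28 at 30 days in callipyge lambs. In normal lambs it read 12.41 and 12.56, 12.41 and 12.36, and 12.01 and 11.98. Every 30 day lamb lay below every 10 day lamb of either genotype, and the mean over 4 lambs was 12.59 ± 0.13 (SD) at 10 days, 12.46 ± 0.09 at 20 days and 12.16 ± 0.19 at 30 days. The step from 10 to 20 days was -0.12 ± 0.08 (adjusted p 0.716) and that from 20 to 30 days -0.31 ± 0.08 (adjusted p 0.191). EEF1G was also the only member to pass for age over all 3 ages (adjusted p 0.0445), against 0.849% of all probe sets. That call over 3 ages was lost with any 1 of the 12 arrays left out. It was also lost with median centring (adjusted p 0.0612), with the replicate block (0.0505), and in further settings. For this test, calls over all probe sets also fell in most fits with 1 array left out, though not in all. Of all 12008 probe sets, 102 were called in the main fit, 79 with median centring and 116 with the replicate block.

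The change of EEF1G from 10 to 30 days stayed between -0.47 and -0.39 with any 1 lamb left out. Its call also rested on the arrays and settings used. Leaving out any 1 of 5 lambs ended it. These were replicates 1 and 2 of both 10 day groups and replicate 2 of the callipyge 30 day group. With each of them left out, calls over all probe sets fell as well. Without both replicate 2 arrays of the 30 day groups the change was -0.40 (adjusted p 0.0865), and with quantile normalization it was -0.21 (adjusted p 0.148). With no filter on dim probe sets the adjusted p was 0.103. Without scaling of the arrays the change was -0.13 (adjusted p 0.700), while the median of all probe sets moved from 0.0023 to 0.24, so that EEF1G lay 0.37 below that median. In that setting the calls over all probe sets turned from 69 higher and 151 lower to 223 higher and 5 lower. Of all probe sets, 220 of 12008 were called in the main fit, 166 with quantile normalization and 87 of 24016 with no filter.

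All 8 genes listed as elongation factors lay below 0 for the change from 10 to 30 days, with a median of -0.28, while 50.4% of all probe sets lay above 0. Without EEF1E1, the synthetase partner, these were 7 of 7, with a median of -0.33. Only EEF1G passed. The other subunits of the exchange complex differed by -0.39 ± 0.12 (EEF1B2, adjusted p 0.113) and -0.40 ± 0.13 (EEF1D, adjusted p 0.142). The translocase EEF2 differed by -0.33 ± 0.12 (adjusted p 0.184). EEF1E1 lay at -0.23 ± 0.14 (adjusted p 0.463), EEF1A2 at -0.16 ± 0.16 (adjusted p 0.692), EEF1A1 at -0.14 ± 0.10 (adjusted p 0.518) and EEFSEC at -0.07 ± 0.17 (adjusted p 0.882). The exchange complex and the translocase thus lay lowest, and the 2 tRNA carriers and EEFSEC nearest to 0. Between 20 and 30 days all 8 again lay below 0, with a median of -0.25. EEF1D differed as much from 10 to 20 days (-0.20 ± 0.13, adjusted p 0.718) as from 20 to 30 days (-0.20 ± 0.13, adjusted p 0.717). With any 1 lamb left out, the change of EEF1B2 stayed between -0.49 (without replicate 1 of the normal 30 day group) and -0.28. Without both replicate 2 arrays of the 30 day groups it was -0.31. With quantile normalization it was -0.25 (adjusted p 0.317). Without scaling of the arrays it was -0.08 (adjusted p 0.835), where the median of all probe sets stood at 0.24.

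The number of elongation factor genes below 0 from 10 to 30 days depended on the scaling. It was 7 of 8 with quantile normalization (EEF1A1 at 0.06) and 4 of 8 without scaling, where all 8 still lay below the median of all probe sets, 0.24. It was 6 of 8 when each gene was taken as the mean of all its probe sets, and 7 of 8 without replicate 1 of the callipyge 10 day group or replicate 1 of the normal 30 day group.

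In single lambs, EEF1B2 read 11.09 and 11.06, 11.20 and 11.11, and 10.66 and 10.76 in callipyge lambs at the 3 ages, and 11.41 and 11.13, 11.07 and 11.24, and 11.07 and 10.66 in normal lambs. Of the 4 lambs of 30 days, 3 lay below every younger lamb, and replicate 1 of the normal group lay with the younger ones. EEF1D read 9.33 and 9.43, 9.19 and 9.04, and 9.35 and 9.08 in callipyge lambs, and 9.58 and 9.64, 9.54 and 9.40, and 8.77 and 9.18 in normal lambs. The normal lambs of 30 days lay below the younger normal lambs, while the callipyge lambs overlapped across ages. EEF2 read 11.74 and 11.52, 11.62 and 11.42, and 11.24 and 11.14 in callipyge lambs, and 11.46 and 11.56, 11.35 and 11.53, and 11.04 and 11.52 in normal lambs. Here the callipyge lambs of 30 days were the lower ones, and the 2 normal lambs of 30 days lay apart, 1 below and 1 among the younger normal lambs.

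**Figure D3:**
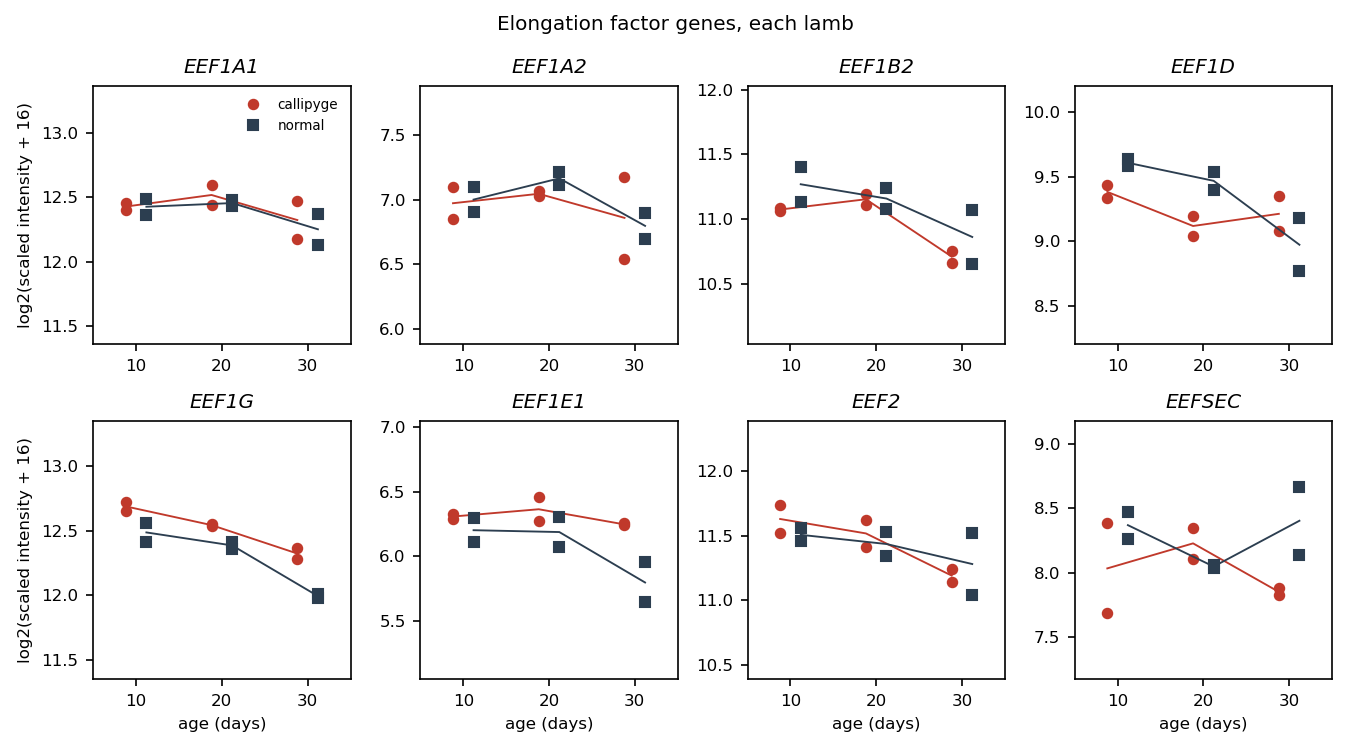
Levels of the 8 genes listed as elongation factors, EEF1E1 included, in each of the 12 lambs (y axis, log2 of scaled intensity plus 16; x axis, age in days; circles callipyge, squares normal, lines through group means of 2 lambs; each panel spans 2 log2 units). EEF1G falls from 10 to 30 days with callipyge lambs above normal lambs at each age, while EEF1A1, EEF1A2 and EEFSEC overlap between ages.

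Brightness moved with this comparison. Of the 310 probe sets with a mean level of 11 or more, 76.5% lay below 0 for the change from 10 to 30 days and their median was -0.20, against medians of 0.0046 under 7, 0.02 from 7 to 9 and -0.02 from 9 to 11. EEF1G, EEF1A1, EEF2 and EEF1B2 belong to those brightest probe sets. Of the 7 members there, 6 lay below 0, with a median of -0.14. EEF1D, EEF1E1, EEF1A2 and EEFSEC lay below 0 at lower brightness. The part of brightness in the change of EEF1G was not tested.

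**Figure D4:**
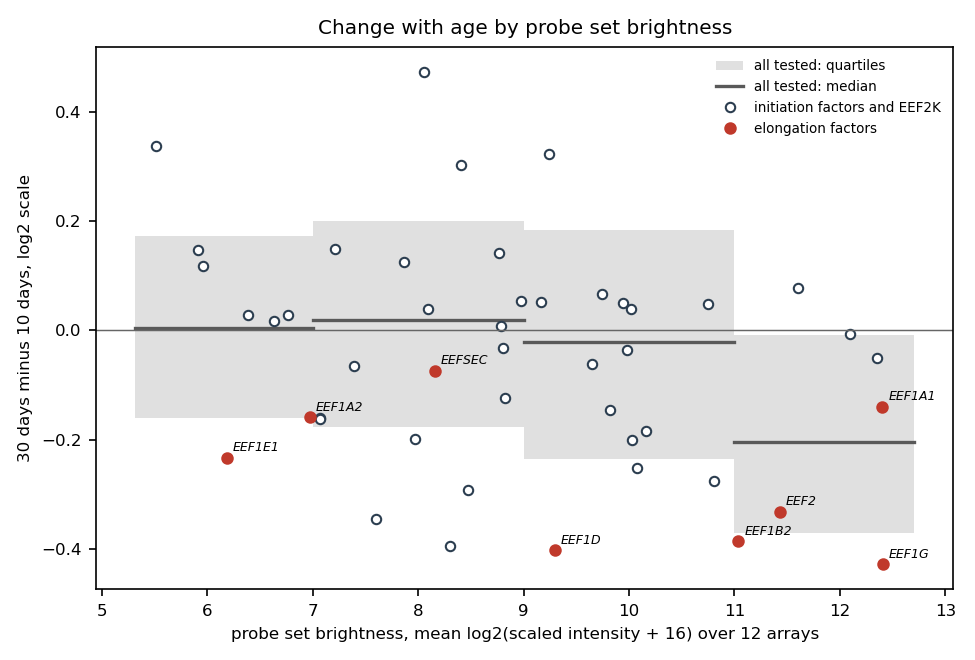
Change from 10 to 30 days (y axis, log2 scale) against the mean level over 12 arrays (x axis, log2 of scaled intensity plus 16) for the 47 tested members; filled points are the 8 genes listed as elongation factors, EEF1E1 included, grey boxes and lines are the quartiles and median of all tested probe sets in 4 ranges of brightness. The median of all probe sets is -0.20 at a level of 11 or more, and EEF1G lies below it at -0.43.

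Over all 47 members the change from 10 to 30 days had a median of -0.04, against 0.0023 for all probe sets, and ran from -0.43 (EEF1G) to 0.47 (EIF1B). At an unadjusted p under 0.05 there were 9 members, against 16.4% of all probe sets: 7 lower, against 8.74%, and 2 higher, against 7.62%. The 95% interval lay within 0.5 of 0 for 25 members, against 33.9% of all probe sets, and within 1 of 0 for all 47, against 93.2%. In EEF1G and EIF3K all 4 lambs of 30 days lay below all 4 lambs of 10 days, which held for 4.31% of all probe sets, and the opposite held for 0 members, against 3.53%.

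**Figure D5:**
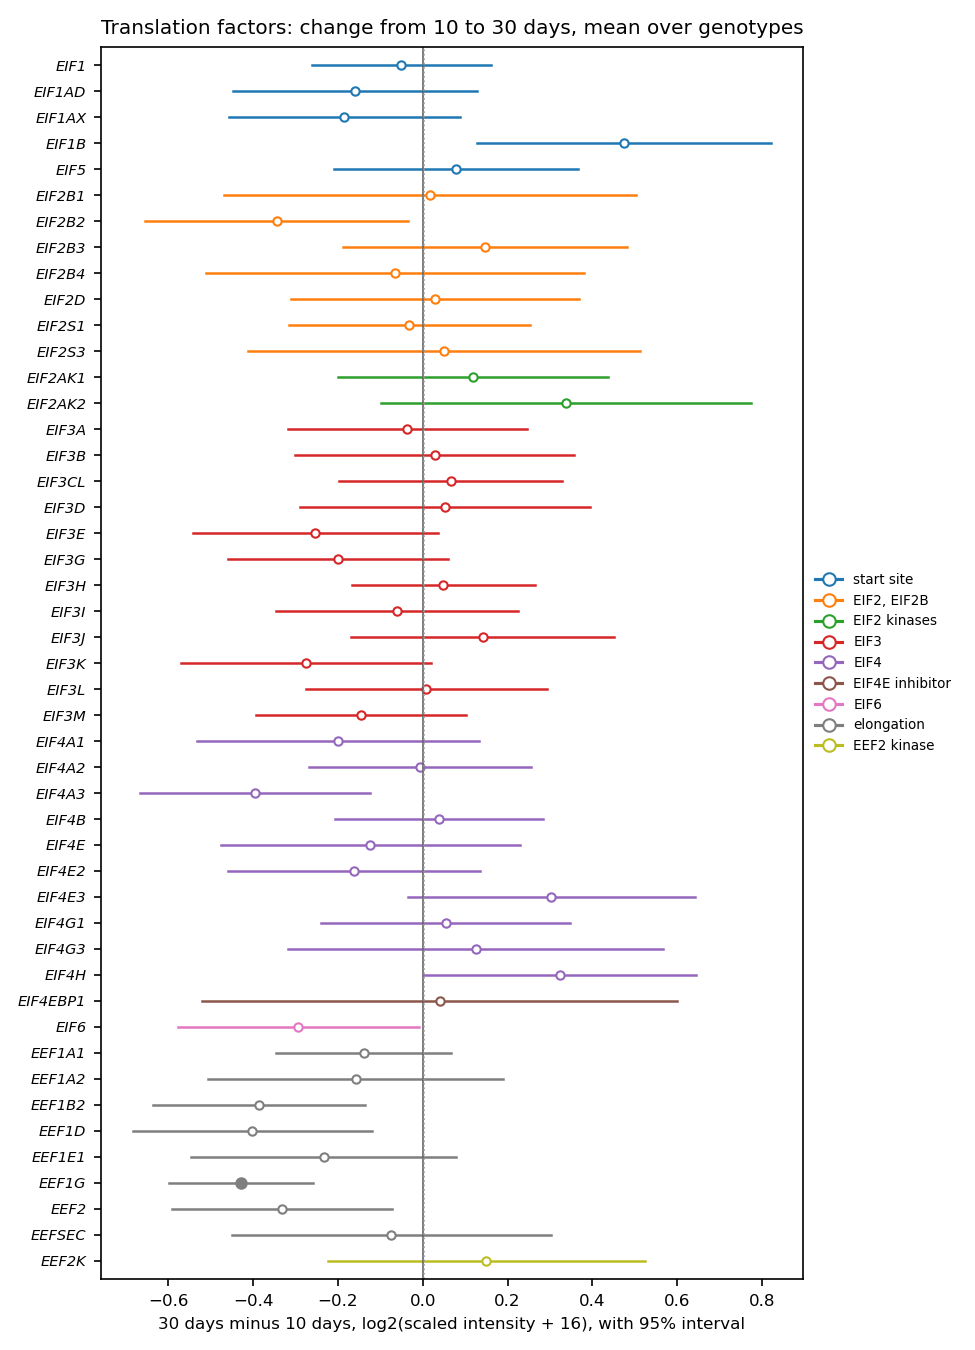
Change from 10 to 30 days, averaged over genotypes, for each of the 47 tested members (x axis, log2 scale; points with 95% intervals from limma, coloured by role; the dotted line is the median of all 12008 probe sets). EEF1G, at -0.43, is the 1 member that passed after adjustment, and all 8 genes listed as elongation factors, EEF1E1 included, lie below 0.

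The initiation factors did not move one way with age. Of the start site factors 2 of 5 lay above 0, of the EIF2 and EIF2B group 4 of 7, of the EIF3 subunits 5 of 11 and of the EIF4 factors 5 of 10, and 0 passed in any of these groups. EIF1B had the largest value above 0, 0.47 ± 0.16 (95% interval 0.13 to 0.82; adjusted p 0.160). It read 8.07 and 7.49 in callipyge and 7.61 and 7.79 in normal lambs at 10 days, 8.21 and 8.21 and 8.13 and 8.26 at 20 days, and 7.81 and 8.23 and 8.28 and 8.53 at 30 days. Most of this difference lay between 10 and 20 days (0.46 ± 0.16, adjusted p 0.463), and at 30 days the callipyge lambs overlapped with those of 10 days. Within the same group EIF1AX, a start codon scanning factor, was the lowest at -0.19 ± 0.13 (adjusted p 0.515).

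EIF4A3 had the lowest value of the initiation factors, -0.40 ± 0.13 (adjusted p 0.138). It read 8.44 and 8.18, 8.29 and 8.24, and 8.0 and 7.95 in callipyge lambs, and 8.82 and 8.6, 8.25 and 8.32, and 8.28 and 8.24 in normal lambs. Both genotypes were lower at 30 than at 10 days, the normal lambs already at 20 days. EIF2B2 lay at -0.34 ± 0.14 (adjusted p 0.251), EIF6 at -0.29 ± 0.13 (adjusted p 0.288) and EIF3K, a peripheral EIF3 subunit, at -0.28 ± 0.14 (adjusted p 0.341). Above 0 were EIF4H at 0.32 ± 0.15 (adjusted p 0.300), EIF4E3 at 0.30 ± 0.16 (adjusted p 0.366) and the kinase EIF2AK2 at 0.34 ± 0.20 (adjusted p 0.441). Smaller values above 0 were those of EIF2B3 (0.15 ± 0.15, adjusted p 0.700), EIF3J, a loosely bound EIF3 subunit (0.14 ± 0.14, adjusted p 0.691), EIF2AK1 (0.12 ± 0.15, adjusted p 0.752) and EEF2K (0.15 ± 0.17, adjusted p 0.731). The cap-binding protein EIF4E lay at -0.12 ± 0.16 (adjusted p 0.765) and its inhibitor EIF4EBP1 at 0.04 ± 0.26 (adjusted p 0.962). The value of EIF4EBP1 had no settled sign: it was 0.40 (adjusted p 0.302) without replicate 1 and -0.32 (adjusted p 0.501) without replicate 2 of the normal 30 day group. Without both replicate 2 arrays of the 30 day groups, the change from 10 to 30 days was -0.47 for EIF4EBP1 (adjusted p 0.291) and -0.34 for EIF4E (adjusted p 0.422). In that setting it was 0.30 for EIF1B, 0.17 for EIF4E3 and 0.12 for EIF4H. The helicases EIF4A1 and EIF4A2 lay at -0.20 ± 0.15 (adjusted p 0.573) and -0.0069 ± 0.12 (adjusted p 0.985), and the scaffolds EIF4G1 and EIF4G3 at 0.05 ± 0.14 (adjusted p 0.891) and 0.13 ± 0.20 (adjusted p 0.817). The EIF4E control probe sets gave 0.06, -0.43 and -0.21 for 3′ end, middle and 5′ end (adjusted p 0.881, 0.133 and 0.534).

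For the shorter steps 0 members passed. From 10 to 20 days 0 of all probe sets passed (0%), and 2 members had an unadjusted p under 0.05, against 8.42%. From 20 to 30 days 0 members passed, against 0.00833%, and 5 had an unadjusted p under 0.05, against 8.99%. In this later step 14 of 47 members lay above 0, against 54% of all probe sets, and the median was -0.07 against 0.02.

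Taken within each genotype, the change from 10 to 30 days had no member past the threshold in callipyge lambs (all probe sets 0%) or in normal lambs (all probe sets 0.808%). EEF1G differed by -0.37 ± 0.11 in callipyge (adjusted p 0.460) and by -0.49 ± 0.11 in normal lambs (adjusted p 0.0618). Of the 8 elongation factor genes, 8 lay below 0 in callipyge lambs (median -0.18) and 7 in normal lambs (median -0.32; EEFSEC at 0.03). EIF4E3 lay at 0.70 ± 0.22 in callipyge lambs (adjusted p 0.475) and at -0.09 ± 0.22 in normal lambs (adjusted p 0.900). Over the 47 members, the changes in the 2 genotypes, which come from different lambs, had the same sign for 30 members, 20 of them lower in both and 10 higher in both. The share of the same sign over all probe sets was 61.3%.

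Further probe sets were at hand for some genes. Of the 51 genes, 17 had more than 1 probe set besides control probe sets, and for 12 at least 2 were tested. Of these 12 genes, all tested probe sets had the same sign for genotype in 10 and for the change from 10 to 30 days in 8. The dimmer probe set of EEF1A1 lay at -0.12 for genotype and 0.16 for the change with age (adjusted p 0.784 and 0.653), opposite to the brighter one in both. For the change with age the signs were also opposite in EEFSEC (0.24 in the dimmer, adjusted p 0.621, and -0.07 in the brighter), EIF4E2 (0.14, adjusted p 0.731, and -0.16) and EIF2S3 (-0.10, adjusted p 0.887, and 0.05). EEFSEC and EEF1A1 are thus among the 8 elongation factors below 0 only by their brighter probe sets. EEF1A1 is also read by control probe sets, fitted as added rows for the change with age. They gave 0.40 (3′ end, adjusted p 0.209), 0.06 (middle, adjusted p 0.942) and -0.13 (5′ end, adjusted p 0.620). Their mean levels were 6.23, 4.87 and 11.78. EIF4E2 was opposite for genotype as well, at -0.15 (adjusted p 0.735) and 0.03. Signs were shared by the following genes. The dimmer one of EIF2AK1 lay at 0.46 and 0.85 (adjusted p 0.653 and 0.321), that of EIF4A3 at -0.13 and -0.18 (0.826 and 0.698), that of EIF4H at -0.14 and 0.39 (0.730 and 0.231), that of EIF4G3 at 0.15 and 0.30 (0.725 and 0.404) and that of EIF5 at 0.16 and 0.51 (0.883 and 0.506). EEF1G, EEF1B2, EEF1D, EIF3I and EIF4EBP1 had 1 probe set each.

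Neighbouring genes of the translation pathway were taken from 6 lists. For genotype 0 of their members were called, against 0.883% of all probe sets. For the change from 10 to 30 days 0 were called, against 1.83%. With 5 to 17 tested genes a list, 0 calls lie near those shares. The EIF2 stress response targets, genes listed for the response to EIF2 phosphorylation, had 10 tested genes, 5 above 0 for genotype, with a median of 0.03. Its 3 smallest p values for genotype belonged to PPP1R15A, which recruits the EIF2 phosphatase (0.51 ± 0.14, adjusted p 0.123), to ATF4, the transcription factor of this response (0.38 ± 0.12, adjusted p 0.206), and to PSAT1, an enzyme of serine synthesis (1.47 ± 0.48, adjusted p 0.233). The first 2 of these lay above 0 with age as well, ATF4 at 0.50 ± 0.15 (adjusted p 0.108) and PPP1R15A at 0.48 ± 0.17 (adjusted p 0.170), with CEBPB at 0.53 ± 0.21 (adjusted p 0.233), while 6 of the 10 genes lay below 0 with age.

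The mitochondrial translation factors, which serve the separate ribosomes of mitochondria, had 9 tested genes, 7 of them below 0 for genotype (median -0.07) and 7 below 0 with age (median -0.22). MTIF2, the mitochondrial initiation factor, lay at -0.60 ± 0.14 for genotype (adjusted p 0.0747), and TUFM, the mitochondrial elongation factor, at -0.40 ± 0.10 for genotype (adjusted p 0.0940) and -0.43 ± 0.12 with age (adjusted p 0.101). Of the cytosolic tRNA synthetases, which charge the tRNAs, 17 were tested: 13 lay above 0 for genotype (median 0.10) and 13 below 0 with age (median -0.19). Among them KARS1 lay at -0.22 ± 0.10 for genotype (adjusted p 0.396), WARS1 at 0.48 ± 0.18 with age (adjusted p 0.198) and QARS1 at -0.30 ± 0.12 with age (adjusted p 0.249).

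In the list of poly(A) binding and mTOR control of initiation, 6 of 17 tested genes lay above 0 for genotype and 10 with age (medians -0.02 and 0.08). The poly(A)-binding protein PABPC4 lay at -0.24 ± 0.12 for genotype (adjusted p 0.448), and PDCD4, an inhibitor of EIF4A, at -0.21 ± 0.13 for genotype (adjusted p 0.558) and 0.34 ± 0.16 with age (adjusted p 0.311). Of 7 termination and recycling genes, 4 lay above 0 for genotype and 1 with age, led for genotype by the ribosome rescue factor PELO at 0.36 ± 0.13 (adjusted p 0.291) and the release factor GSPT1 at 0.31 ± 0.12 (adjusted p 0.312). Of 5 hypusine and diphthamide enzymes, which modify EIF5A and EEF2, 4 lay above 0 for genotype and 1 with age. DPH5, of the diphthamide pathway, lay at -0.46 ± 0.20 with age (adjusted p 0.267).

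Marker lists of the cell types in the tissue held 0 called genes for genotype, against 0.883% of all probe sets. From 10 to 30 days 0 were called, against 1.83%. With 1 to 10 tested genes a list, these 0 calls too lie near the shares of all probe sets. Sums are of scaled intensities without log, over all measured genes of a list, those too dim to test included. The sum of the 10 muscle fibre markers ran from 73232 to 83834 in callipyge and from 66868 to 85567 in normal lambs. By age it ran from 77100 to 85567 at 10 days and from 66868 to 83186 at 30 days. Developing muscle markers (5 of 8 tested, among them the embryonic and perinatal myosins MYH3 and MYH8) had a median sum of 4454 (2456 to 5366) at 10 days and 2884 (2122 to 3411) at 30 days. The immune markers (4 of 9 measured genes tested) summed to 157 to 212 at 10 days and to 209 to 259 at 30 days, and PTPRC, CD3D, CD4, CD8A and ITGAM were dim. The erythroid markers (HBA, HBB and CA2 tested) had a median sum of 169 (157 to 239) in callipyge and 286 (197 to 315) in normal lambs. Fibroblast and matrix markers (9 tested) summed to 9814 to 13424 in callipyge and 9591 to 16216 in normal lambs, and endothelial and smooth muscle markers (8 tested) to 3060 to 4309 and 3227 to 5652. Their part in the values of EEF1G with age and of EIF4EBP1 with genotype was not tested.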

How the data were processed

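Biotin-labelled RNA of 12 lambs was read on Affymetrix bovine arrays, 1 array per lamb. The deposited table holds linear intensities for each probe set, made by the authors with MAS5 in GCOS, per the submitters' processing notes; versions and the scaling target are not given in the sources used here. Each array was scaled so that its 2% trimmed mean met the mean of the trimmed means (79.2), and log2 of the value plus 16 was taken. The 112 control probe sets and probe sets with a mean below the median (5.25) were left out, which left 12008. limma 3.58.1 in R 4.3.3 fitted a mean for each of 6 groups, with shared variances and a trend (6 residual and 6.93 prior degrees of freedom). P values were adjusted by Benjamini-Hochberg over all 12008 probe sets with a threshold of 0.05, and the procedure was tested on simulated data.

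Replicate numbers were not said to pair the lambs, and the main fit had no replicate term. Between pairs of groups the replicate 2 minus 1 deviations correlated from -0.059 to 0.11, above 0.1 in 1 of 15 pairs. With 2 lambs a group, such correlations cannot tell whether the lambs were paired. Labels and headers named no batch.

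Members named were those past the threshold in any comparison, the 8 smallest p values in each direction for genotype and for 10 to 30 days, the 3 smallest at each age and for the interaction, the highest and lowest of each role group, and set members of known control function. EIF2S1, and EIF2S3 and EIF4E2 for their further probe sets, were named outside this rule, after their values were seen. For the other lists up to 3 genes with the smallest p were named. Members, lists and rules were chosen with earlier results of these data known. The EIF4E and EEF1A1 control probe sets and the split by brightness were added after seeing the data. Alternatives were other scalings, pseudocounts (1 and 64), filters, variance models, probe set rules, a threshold of 0.10, a replicate term and left-out arrays. Genes on the role lists with no probe set of a single symbol, such as EIF5A, EIF5B and EIF2S2, were not analysed here. Plots used python 3.11.15 with matplotlib 3.10.9.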

Additional observations from a re-analysis of the deposited data

How the results depend on the processing

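Without scaling of the arrays, 1 member (EIF4EBP1) was called for genotype, 0 for the change from 10 to 30 days and 0 for age over 3 ages, and the member medians were -0.16 for genotype and 0.26 from 10 to 30 days, near the medians of all probe sets in that setting (-0.19 and 0.24). Quantile normalization and no filter each gave 0 calls from 10 to 30 days and 0 for age over 3 ages. Median centring, a pseudocount of 1, array weights and ordinary least squares each gave 0 calls for age over 3 ages. Without both replicate 2 arrays of the 30 day groups, 1 member (EIF4EBP1) was called for genotype at 10 days, 0 from 10 to 30 days and 0 for age over 3 ages, and the median from 10 to 30 days was -0.13. With 1 array left out in turn, where a lone lamb of a group is assumed to vary like the others, calls ran from 0 to 1 for genotype, from 0 to 2 from 10 to 30 days and from 0 to 0 for age over 3 ages. Medians then ran from 0.02 to 0.06 for genotype and from -0.11 to 0.0098 from 10 to 30 days. With the replicate number as a block, 0 members were called for age over 3 ages (EEF1G, adjusted p 0.0505) and EEF1G was still called from 10 to 30 days (adjusted p 0.0213). The block changed no other call of a member. Where a call was lost, the cause was not tested. Of the values of 68 named results under the alternatives, 9 lost a call, 3 gained one, 0 called values changed sign and 85 uncalled values had the other sign. With 2 lambs a group, the number of arrays limits what can be detected.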
